A study of Oryza sativa Japonica Group with 36 samples.

Results

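The shoots of K354 rice seedlings after 24 h at 4 °C were compared with K354 shoots kept at 25 °C, on 6 of the 36 arrays of the study. The members were chosen by their labels alone, 3 arrays labelled K354 cold stress 24h and 3 labelled K354 control. No measured value was a criterion, though earlier results of these data were known. K354 is an introgression line that carries segments of the indica variety Bg300 in the background of C418, a japonica restorer line, so that both lines share most of their genome and K354 is 1 line. Whole shoots of seedlings at the 3-leaf stage were taken, each replicate from a separate pot, and the seedlings had grown at 25 °C with a 12 h photoperiod. The control of each line pooled shoots collected 2 h and 24 h after the start of the experiment. It therefore matches the 24 h cold shoots in time of day only in part. The other groups compared here, each with 3 arrays, were K354 after 12 h and 48 h at 4 °C. C418 at 25 °C and after 24 h at 4 °C was also compared, with 3 arrays per group. K354 after 2 h and 6 h at 4 °C, with 3 arrays each, entered the plot of single genes by hours at 4 °C.

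Cold is sensed in plant cells within minutes through calcium influx, which calmodulin-like proteins and protein kinases read. The DREB1 (CBF) factors of the AP2 family are then transcribed, and they bind a short DNA element in the promoters of genes for osmolytes, membrane and protective proteins. Jasmonate, abscisic acid and the circadian clock act on the same genes, while photosynthesis and growth slow. Rice is of tropical origin and its seedlings are injured by temperatures that barley or wheat tolerate.

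Each value is the intensity of a probe set, a group of short probes against 1 transcript, and folds are differences of log2 intensities. The median intensity of the 6 arrays ranged from 63.2 to 67.8, and arrays of the control group correlated at 0.993 to 0.996. At 24 h, replicates 1 and 3 correlated at 0.992, and replicate 2 stood apart, at 0.979 to 0.983 with the others. Of all 57258 probe sets tested, 1404 lay over 2-fold below the mean of the other 2 arrays in replicate 2, against 257 in replicate 1 and 174 in replicate 3. This array is named beside the genes it set apart, and the main counts and changes of such genes are also given without it. The RNAs added to each sample as references also rose at 24 h, the hybridization controls by 0.34 and the poly-A controls by 0.80 on the log2 scale. Scaling the arrays to these controls moved the median change of all probe sets from -0.032 to -0.37 or -0.83, so that changes against the K354 control are lower with these references. Control probe sets for 25S rRNA were at 651, 601 and 712 in the 3 control arrays and at 5305, 5628 and 5518 after 24 h, and their part in the other changes was not tested. The tissue label was compared with markers. The sum of 2 genes for the small subunit of RuBisCO, the carbon-fixing enzyme of leaves, was 14349.6 to 14467 in the control and 13385 to 14315 at 24 h, while 3 root genes summed to 228 to 283 and to 152 to 181.

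The 24 h of cold changed many more genes upward than downward at a high fold. With a Benjamini-Hochberg adjusted p under 0.05 from limma and a change of over 5-fold, 1063 probe sets were induced (1.86% of those tested) and 179 were repressed (0.313%). The groups did not overlap for 1045 of the induced and for all 179 of the repressed probe sets, beside 29096 of all 57258. The induced and repressed sets were chosen by their change on the same arrays, so few overlaps follow from the choice. Without a fold threshold the balance was the other way, with 11037 probe sets higher (19.3%) and 12460 lower (21.8%). The split at 5-fold also turned with the scaling, since 749 were induced and 357 repressed with the hybridization controls as reference, and 485 and 885 with the poly-A controls. Of the induced probe sets, 292 had all 3 control arrays below the 25th percentile of their array. For genes of this kind a fold, where given, is a lower bound. Log2 changes are fitted values without that floor, also for dim genes such as IAA14, OsEXP7 and PRX74, and are not bounds. Without replicate 2 of the 24 h group, 1331 probe sets were induced, 1037 of them shared, and 200 were repressed.

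The transcription factors of the cold pathway were among the most strongly induced genes. OsDREB1B rose from 241, 387 and 564 in the 3 control arrays to 8289, 8369 and 7394 after 24 h, a log2 change of 4.42 ± 0.21 (SE, n = 3 against 3, adjusted p = 5.55e-16 by limma). OsDREB1A, which lies close to it on chromosome 9, was at 249, 370.0 and 417 in the control and at 4207, 4383 and 2779 in the cold. OsDREB1C rose from 38.5, 50.4 and 72.8 to 2295, 1869 and 1142, a log2 change of 5.03 ± 0.29. All 3 genes had every cold array above every control array, and replicate 3 was the lowest of the cold arrays. OsDREB1G was induced by 3.04 on the log2 scale, OsDREB1E rose by 1.81, and OsDREB1F, a dim gene, reached at least 3.36-fold. Of the 5 DREB1 genes matched by symbol, 4 rose and 0 fell, and CBF1 was at a log2 change of -0.12, which did not pass. OsDREB1C and OsDREB1F are not in this list, and whether CBF1 is a gene apart from them was not checked. The median of the 5 was 3.04, while 28.5% of all 17905 genes, each at its brightest probe set, were higher and 33.3% lower at the same threshold. These shares are the background for the counts of every list against the K354 control. The largest change of all named probe sets was that of LOC_Os09g28440, which encodes another AP2 domain protein and went from 16.3, 21.5 and 28.8 to 4045, 3806 and 2593, a log2 change of 7.30 ± 0.23.

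MYB and NAC factors, both large plant families of transcriptional regulators, followed. LOC_Os04g49450, a MYB factor, rose from 76.2, 79.2 and 115 to 5808, 5962 and 5627, or 6.03 on the log2 scale. OsMYB2 was at 73.8, 89.0 and 117 before and at 3263, 2649.9 and 2172 after 24 h. OsMyb4, which raises cold tolerance when overexpressed in Arabidopsis, changed by 4.28 on its brighter probe set and by 3.71 on the other. The cold arrays of these genes lay close together, and all were above every control array. Of 8 NAC genes, 5 rose and 0 fell (median 1.07), led by OsNAC4 (3.44 ± 0.16) and OsNAC3 (3.37 ± 0.12). Of 6 WRKY genes, a family known for roles in defence, 3 rose and 1 fell. OsWRKY24 was at 593, 656 and 678 in the control and at 5798, 5324 and 3501 in the cold, and OsWRKY76 reached a change of 2.27, whereas OsWRKY51 fell by 1.23 on the log2 scale.

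Of 20 heat stress factors, which bind the promoters of chaperone genes, 7 rose and 8 fell, near the shares over all genes of 28.5% and 33.3%, with a median of -0.079. With the poly-A controls 4 were higher and 14 lower. OsHsf-03 rose from 77.8, 69.9 and 73 to 1622, 1494 and 1548, and OsHsf-07, annotated as class A-3, rose by 4.15 on the log2 scale. OsHsf-24, annotated as class B-2c, was repressed from 1029, 1068 and 1057 to 161, 181 and 179.7. Of 4 listed small heat shock proteins, which keep unfolded proteins from clumping, 0 rose and 2 fell. LOC_Os06g14240, a small heat shock protein, dropped from 1181, 1164 and 1327 to 57.2, 59.3 and 46.5, a log2 change of -4.50 ± 0.15. LOC_Os02g52150, annotated as a mitochondrial heat shock protein of 22 kDa, changed by -3.71, and OsBiP1, the HSP70 of the endoplasmic reticulum, by -2.04. Among 6 HSP70, HSP90 and HSP100 genes 2 rose and 3 fell, and among 5 DnaJ co-chaperones the counts were also 2 and 3.

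**Figure D1:**
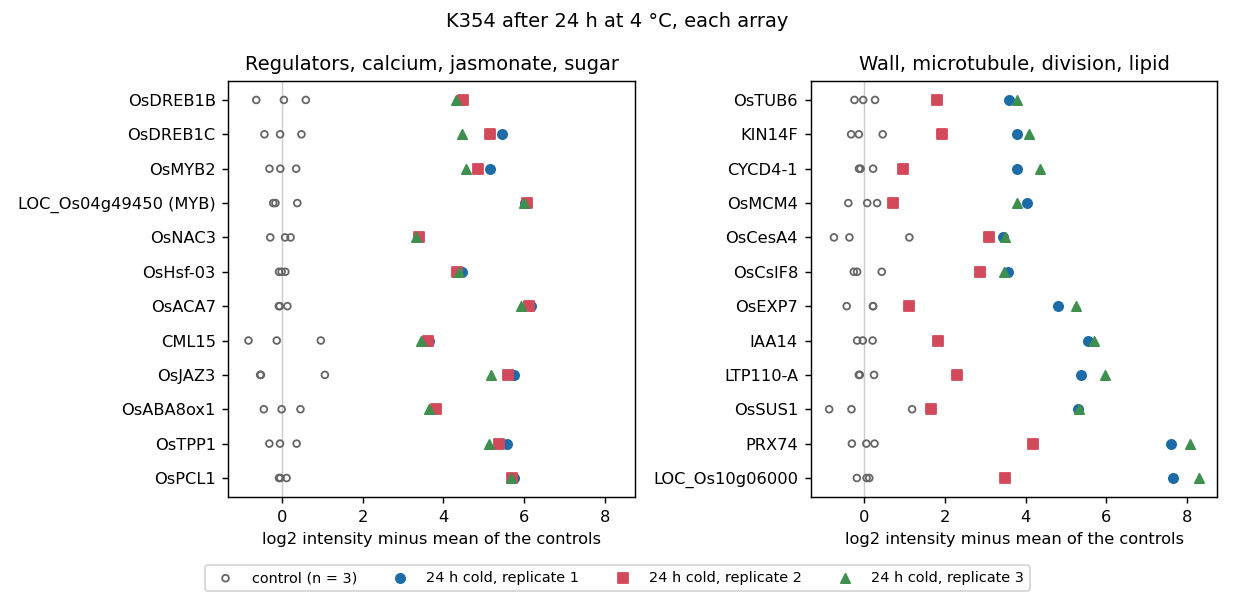
Log2 intensity of 24 induced genes on each of the 6 K354 arrays, minus the mean of the 3 control arrays (open circles); filled symbols are the 3 arrays after 24 h at 4 °C. In the right panel replicate 2 (squares) is the lowest cold array of each gene, by much for OsTUB6 (801 against 2771 and 3178) and by little for OsCesA4, while in the left panel it lies with the others or, as for OsDREB1C (2295, 1869 and 1142), between them.

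Genes of calcium transport and signalling were among those that rose. OsACA7, a pump that moves calcium out of the cytosol, rose from 43.0, 43.7 and 49.8 to 3277, 3167 and 2746, a log2 change of 6.07 ± 0.29. Of 26 calmodulin-like sensors, 11 rose and 5 fell (median 0.18), beside 28.5% of all genes higher and 33.3% lower. CML27 went from 623, 709 and 889 to 6358, 5782 and 4987, and CML15 from 239, 388 and 827 to 5271, 5258 and 4625. The control arrays of CML15 differed from each other far more than its cold arrays, and the third control array was the highest for both genes. Among 20 calcium-dependent protein kinases, 10 rose and 2 fell, beside the same shares of all genes, and OsCDPK6 reached at least 2.43-fold. Of 31 CBL sensors and CIPK kinases 10 were higher and 13 lower (2 and 22 with the poly-A controls), beside 28.5% and 33.3% of all genes. OsCIPK14 changed by 1.42 on the log2 scale, while OsCIPK05 was repressed from 2752, 2626 and 2557 to 537, 573 and 325 and OsCIPK10 from 559, 487 and 475 to 77.3, 69.3 and 104. In the MAP kinase cascade 7 of 16 genes rose and 4 fell, again beside 28.5% and 33.3% of all genes. OsBIMK1, a MAP kinase, was at 710.1, 789.7 and 819.6 before and at 4086, 3811 and 2647 after 24 h, and LOC_Os05g46760, annotated as a MAP kinase kinase kinase, changed by 5.61. With the poly-A controls as reference the medians of the calmodulin-like, calcium-dependent kinase and MAP kinase lists turned from 0.18, 0.17 and 0.13 to -0.62, -0.63 and -0.67.

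Repressors of the jasmonate pathway and some enzymes of jasmonate synthesis rose. The TIFY (JAZ) proteins hold back jasmonate responses until the hormone triggers their degradation. OsJAZ3 rose from 77.5, 78.5 and 235 to 6019.8, 5450.2 and 4070.2, and OsJAZ13 from 154, 216 and 286 to 4282, 4174 and 3046. Of 17 members 10 rose and 1 fell, with a median of 0.46 that turned to -0.34 when the arrays were scaled to the poly-A controls (0.13 with the hybridization controls). In jasmonate synthesis 5 of 12 genes rose and 2 fell, with a median of 0.29 (-0.51 with the poly-A controls). AOS2, allene oxide synthase, changed by 2.52 ± 0.16 and OsOPR4, a 12-oxophytodienoate reductase, by 3.07 ± 0.19, whereas AOC3 fell by 1.14 on the log2 scale.

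Of the abscisic acid genes matched, OsABA8ox1, whose enzyme breaks down the hormone, rose from 511, 694 and 959 to 9575, 9912 and 8723, and OsABA8ox2 fell by 0.78. Among 55 protein phosphatases 2C, of which the clade A members are inhibitors of abscisic acid signalling, 21 rose and 14 fell (10 and 35 with the poly-A controls). This stands beside 28.5% of all genes higher and 33.3% lower, and the median of the list was 0.13. The largest changes were those of OsPP2C73 (3.09) and OsPP2C32 (2.87). LEA proteins and dehydrins, which protect cells under water loss, were uneven, with 2 of 7 higher, 0 lower and medians of -0.17, 0.53 and 1.38 in replicates 1, 2 and 3. OsCYP85A1, a brassinosteroid C-6 oxidase, rose from 88.6, 92.3 and 122 to 1473, 1228 and 1400.2. Of 10 cytokinin response regulators, 1 rose and 6 fell (median -0.47), among them OsRR4 (-1.30) and OsRR6 (-1.02).

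Auxin genes were mostly higher by a little. Of 43 auxin response factors and Aux/IAA repressors, 28 rose and 6 fell with a median of 0.41, which turned to -0.39 with the poly-A controls as reference. IAA23 changed by 2.1 on the log2 scale on its brightest probe set. Another probe set of IAA23, dim in the control, was at 6.36, 4.93 and 5.70 against 293, 332 and 277 in the cold, at least 10.5-fold higher. IAA14 and IAA31 behaved differently, since replicate 2 lay far below the others. IAA14 was at 231, 17.5 and 257 and IAA31 at 1140.2, 463 and 1664 after 24 h, and without replicate 2 the fitted log2 changes went from 4.36 to 5.63 and from 2.52 to 3.04.

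Sugar genes with steep changes were few. OsTPP1, a trehalose-6-phosphate phosphatase known from rice to respond to cold, rose from 64.7, 77.7 and 103 to 3813, 3354 and 2806. Of 8 trehalose genes 4 rose and 0 fell, and the median of 0.37 turned to -0.43 with the poly-A controls. AMY3D, an alpha-amylase that degrades starch, was at least 12.9-fold higher on 1 probe set and at least 2.71-fold on the other. OsSUS1, sucrose synthase, was at 34.8, 51.0 and 144 in the control and at 2493, 200.3 and 2537 in the cold, with replicate 2 close to the third control array, and its log2 change of 4.09 became 5.31 without that replicate.

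Of 7 clock genes 3 rose and 3 fell, but with the pooled control, cold and hour of the day cannot be told apart. OsPCL1, the rice relative of the evening gene LUX, rose from 41.5, 42.5 and 47.2 to 2329.8, 2273 and 2214, a log2 change of 5.70 ± 0.18. OsPRR1, the relative of TOC1, went from 90.6, 89.4 and 93.4 to 896, 793 and 957. GI was at 3953, 3833 and 3850.2 in the control and at 1471, 1486 and 1515 in the cold, and OsPRR73 changed by -1.35. The replicates of these 4 genes were close to each other in both groups.

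Steep rises were also seen in genes with varied annotations. LOC_Os10g35640, annotated as a precursor of the mitochondrial fertility restorer Rf1, rose from 36.3, 36.9 and 34.9 to 2723, 2985 and 1859. LOC_Os07g46670, annotated as early response to dehydration 15, was at 13.1, 13.9 and 14.8 before and at 799, 819.7 and 580.4 after 24 h, at least 25.5-fold higher. LOC_Os08g17160, which has a plastocyanin-like domain, reached at least 54.8-fold, and LOC_Os11g05380, a cytochrome P450, changed by 5.49 on the log2 scale. The replicates of these 4 genes were close at 24 h.

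Many genes of the cell wall, the microtubules and cell division rose, and here the 3 replicates differed. Of 30 genes for enzymes that make cellulose or remodel xyloglucan, 22 rose and 3 fell, with a median change of 1.52 in replicate 1, 0.80 in replicate 2 and 1.65 in replicate 3. OsCesA4, a cellulose synthase of secondary walls, rose from 91.0, 119 and 332 to 1669, 1311 and 1721. OsCslF8, of a family that makes mixed-linkage glucan, reached at least 4.94-fold, and OsCslE1 fell from 1887, 1906 and 2136 to 358, 690.0 and 516. The expansins, which loosen walls, moved less, with 9 of 29 higher and 4 lower (2 and 19 with the poly-A controls). OsEXP7 was at 18.2, 11.6 and 18.2 in the control and at 438, 34.0 and 590.0 in the cold, and its fitted log2 change of 3.72 became 5.02 without replicate 2.

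Of 11 tubulins, 9 rose and 0 fell, with medians of 2.25, 0.83 and 2.59 in the 3 replicates. OsTUB6 rose from 195, 227 and 278 to 2771, 801 and 3178, a log2 change of 3.05 ± 0.46 (adjusted p = 3.20e-06 by limma) that became 3.68 without replicate 2. OSTB-34 was at 228, 294 and 495 before and at 3272, 1055 and 3268 after 24 h. In both genes all cold arrays were above all control arrays. Without replicate 2 the median of the tubulins went from 1.98 to 2.42, with the same counts.

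Of 33 kinesins, motor proteins that move along microtubules, 22 rose and 1 fell. Their median changes were 1.12, 0.22 and 1.11 in the 3 replicates. KIN14F went from 19.9, 22.7 and 34.2 to 347, 95 and 422, and KIN13B changed by 2.62 on the log2 scale. Of 16 cyclins, which drive the cell cycle, 12 rose and 1 fell, with medians of 1.26, 0.16 and 1.14. CYCD4-1 was at 28.9, 29.6 and 36.8 in the control and at 439, 61.0 and 645 in the cold, and CYCB1-1 at 35.9, 55.1 and 48.4 and at 408, 131 and 314. Replicate 2 was the lowest of the 3 cold arrays for each of these genes, and it was still above every control array. Without it the changes of KIN14F, CYCD4-1 and CYCB1-1 went from 3.27, 3.03 and 2.48 to 3.94, 4.08 and 2.97. The median of the kinesins went from 0.86 to 1.17, with 24 higher and 1 lower, and that of the cyclins from 0.93 to 1.20, with 12 and 1.

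Among 21 DNA replication proteins 10 rose and 4 fell, and without replicate 2 the counts were 14 and 4. OsMCM4, a subunit of the replicative helicase, was at 27.8, 20.1 and 33.0 before and at 436, 43.4 and 365 after 24 h, and OsMCM3 reached at least 2.95-fold. The change of OsMCM4 was 2.85, and 3.91 without replicate 2. Scaling to the poly-A controls left 7 tubulins higher and 2 lower (median 1.19), 10 kinesins higher and 9 lower (0.061), 5 cyclins higher and 6 lower (0.13) and 6 replication genes higher and 9 lower (-0.34). In these whole shoots a larger share of dividing cells and more RNA per cell cannot be told apart. The 2 genes that mark the shoot meristem summed to 608 to 676 in the control and to 414 to 523 at 24 h, 1 of them lower and 0 higher. Without replicate 2 of the 24 h group 1 was higher and 1 lower, as also over all 3 of their probe sets. Their median changes were 0.30, -0.26 and 0.23 in the 3 replicates, and their part in the changes above was not tested.

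**Figure D2:**
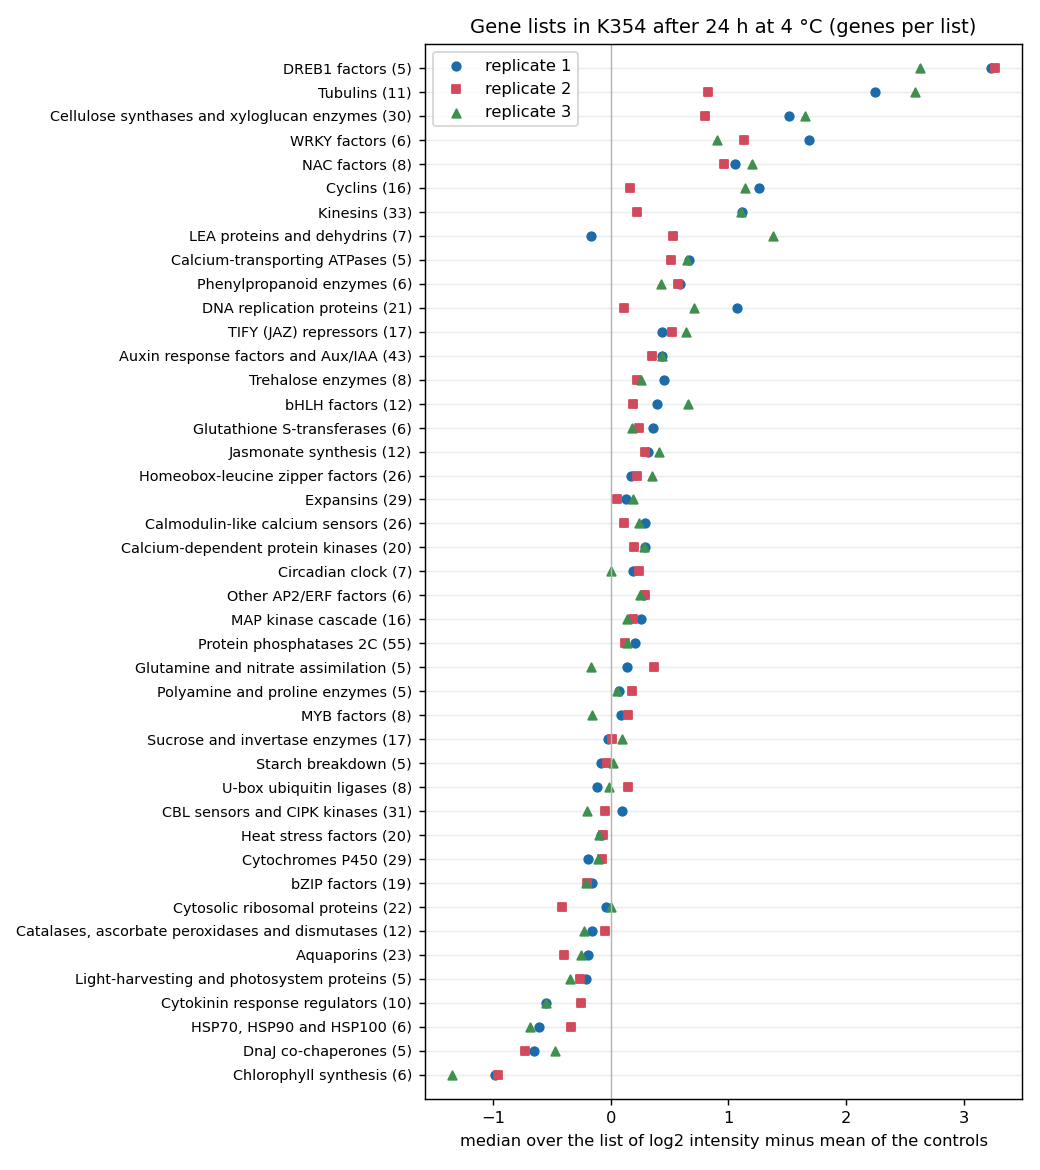
Median log2 change of each gene list with 5 or more genes on the 3 arrays of K354 after 24 h at 4 °C, minus the mean of the 3 control arrays; the number of genes is in brackets. The DREB1 factors lie at 2.63 to 3.27 on all 3 arrays, while replicate 2 (squares) lies below the other 2 for tubulins (0.83), cyclins (0.16) and kinesins (0.22).

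Some genes of lipid transfer and of the wall had a wide spread. LOC_Os10g06000, annotated as a pollen Ole e I allergen and extensin family protein, was at 11.6, 12.1 and 9.79 in the control and at 2249, 126 and 3493 in the cold, a log2 change of 6.49 ± 0.99 and at least 35.0-fold. PRX74, a class III peroxidase, went from 5.07, 3.44 and 4.41 to 822, 76.6 and 1146. LTP110-A, a lipid transfer protein, rose from 58.0, 75.3 and 59 to 2623, 315 and 4000.3. All cold arrays of these genes were above the control arrays, and replicate 2 lay far below the other 2 in each. Without it the fitted log2 changes of LOC_Os10g06000, PRX74 and LTP110-A went from 6.49, 6.61 and 4.55 to 7.98, 7.83 and 5.67.

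A few genes had another order of replicates. LOC_Os10g36100, annotated as the lipid transfer protein LTPL157, was at 35.6, 40.8 and 152 in the control and at 904, 3345 and 2115 after 24 h, with replicate 1 the lowest in the cold. OsICL, the isocitrate lyase of the glyoxylate cycle, showed the same order with 62.5, 202 and 291 against 358, 2482 and 1813. LOC_Os03g48750, a cupin domain protein, was at 31.3, 55.4 and 86.0 and at 344, 1131 and 1880.2. The third control array was the highest for all 3 genes.

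The repressed genes were more even over the replicates. The median change of the 179 repressed probe sets was -2.66, -2.59 and -2.84 in replicates 1 to 3, against 3.37, 2.64 and 3.44 for the 1063 induced. The most strongly repressed of the named genes belongs to light harvesting. LOC_Os07g38960, annotated as a chlorophyll a/b binding protein, fell from 848, 905 and 671 to 31.9, 30.0 and 19.4, a log2 change of -4.92 ± 0.21 (adjusted p = 9.53e-17 by limma). LOC_Os04g59440, with the same annotation, was at 1452, 1913 and 2056 in the control and at 107, 118 and 140.1 in the cold. The listed genes of the photosystems moved less, with 0 of 5 higher, 2 lower and a median of -0.27. Of 6 genes of chlorophyll synthesis 1 rose and 3 fell, with a median of -1.12. PORB, which carries out the light-dependent reduction of protochlorophyllide, fell from 3916, 4072 and 3905 to 1269, 1026 and 971, and CHL9, a subunit of magnesium chelatase, from 286, 233 and 258 to 118, 122 and 93.3. All 3 genes matched for chlorophyll breakdown rose, with a median of 0.68 that turned to -0.12 with the poly-A controls.

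Of 23 aquaporins, which let water through membranes, 3 rose and 12 fell, beside 28.5% of all genes higher and 33.3% lower. OsTIP1;2, a channel of the vacuolar membrane, dropped from 1145, 935 and 954 to 114, 129 and 184, and OsPIP2;7, of the plasma membrane, from 3553, 3614 and 3935 to 1429.6, 1602 and 987. OsPIP2;6 was higher at 4559, 1822 and 5220.3 against 993, 1312 and 1683, and OsNIP1;1 at 755, 182 and 892 against 169, 179.9 and 246, so that replicate 2 of OsNIP1;1 lay within the control values. Of 12 catalases, ascorbate peroxidases and dismutases 0 rose and 4 fell, a share of lower genes at the background. CAT-A, a catalase, went from 8122, 8057 and 7833 to 3317, 3931 and 3043. OsGLN2, glutamine synthetase, was on 1 probe set at 1229, 1157 and 1022 before and at 230.2, 238 and 137 after 24 h, while a second and brighter probe set changed by only -0.23.

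Other named genes that were repressed had mixed annotations. LOC_Os07g43560 and LOC_Os07g43570 encode receptor-like kinases of the DUF26 type. The former fell from 982, 1070.3 and 792 to 83.1, 86.5 and 45.3, and the latter from 485, 398 and 341 to 33.1, 43.3 and 25.2. LOC_Os03g02020, with a stress responsive A/B barrel domain, was at 2173, 2068 and 1852 and then at 156, 163 and 135. OsHox4, a homeodomain-leucine zipper factor, was repressed from 1785, 1611 and 1442 to 200.0, 226 and 207. LOC_Os05g35470, a dienelactone hydrolase domain protein, changed by -3.22 on the log2 scale and LOC_Os02g50460, annotated as an early elicitor-responsive protein, was at least 5.67-fold lower. LOC_Os06g33100, a peroxidase, also passed, but its control arrays read 78.7, 3991 and 83.7, so that 1 array set most of its change.

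A pair of gene sets that the study drew from these samples was followed. They were chosen on these arrays and are no independent evidence of a direction. All 22 genes listed as an OsDREB1C regulon were higher at 24 h, 14 of them over 5-fold (3.69% of all genes), with changes from 1.29 to 3.57 (median 2.35). Their median was 2.47 at 12 h and 3.16 at 48 h in K354, 2.72 at 24 h in C418, and for 0 of the 22 was the difference between the lines called at 24 h. The study drew these 22 from genes induced by cold in both lines and listed their cold changes at 2 h and 6 h only. The count at 24 h therefore does not bear on its line difference at those times. The study listed 10 disease resistance genes because they were higher in K354 than in C418 and not cold-responsive by its 5-fold criterion. At any fold, 0 of the 10 were higher and 8 lower in K354 (median -0.87, lowest -1.74), against a median of -0.14 in C418. The difference was called for 6, some of which lay below the 25th percentile on all C418 arrays. Since the choice favoured genes high in K354 and low in C418, this difference is not read.

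Many tubulin, kinesin and wall enzyme genes were higher at 24 h than at 12 h. Against 12 h, 387 probe sets were over 5-fold higher at 24 h (0.676% of those tested) and 2 were lower (0.00349%). Relative to the control, the median change of the 387 probe sets was -0.16, 0.37 and 0.011 on the 12 h arrays and 3.64, 1.71 and 4.07 on the 24 h arrays. They were chosen by their difference between 24 h and 12 h on these arrays, so that contrast follows from the choice. Replicate 2 lay over 2-fold below the mean of the other 2 arrays for 276 of the 387, and without it 636 probe sets were called, 381 of them shared. Without replicate 3 of the 24 h group 222 were called. The count of 2 lower probe sets was 1 to 7 with each of the 6 arrays left out in turn. Of the lists, 10 of 11 tubulins, 23 of 33 kinesins, 22 of 30 wall genes, 12 of 21 replication genes, 7 of 16 cyclins and 9 of 29 expansins were higher than at 12 h without a fold threshold, at a background of 25.1% of genes, and 0 of 5 DREB1 genes were.

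LOC_Os10g06000 was at 9.78, 11.2 and 9.85 at 12 h, close to its control, and at 2249, 126 and 3493 at 24 h. LOC_Os05g38000, annotated as a guanine nucleotide exchange factor of ROP GTPases, went from 13.6, 10.6 and 10.1 to 856, 46.7 and 1326. LOC_Os01g59870, the lipid transfer protein LTPL65, was at 8.66, 11 and 7.48 and then at 917, 33.5 and 932. All 12 h arrays of the 3 genes were as low as the control. In the other direction OsADF11, an actin-depolymerizing factor, fell from 2770.1, 2469 and 2642 at 12 h to 1003, 1025 and 506 at 24 h, a log2 difference of -1.71 ± 0.21.

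**Figure D3:**
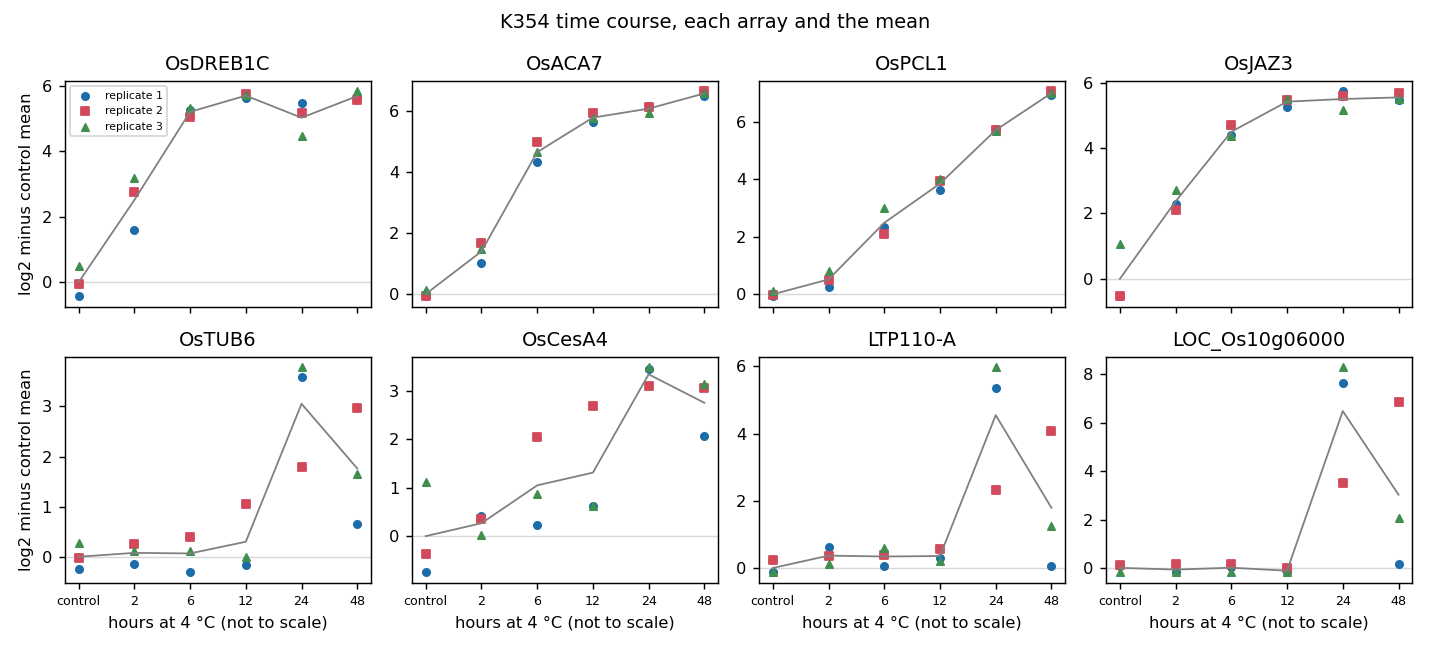
Log2 intensity of 8 genes in K354 minus the control mean, by hours at 4 °C (steps not to scale), with 3 arrays per time as symbols and their mean as a line. OsDREB1C, OsACA7 and OsJAZ3 were near their 24 h level by 12 h and OsPCL1 still rose, while OsTUB6, LTP110-A and LOC_Os10g06000 were near the control until 12 h and spread at 24 h and 48 h.

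After 48 h the same group was uneven in another order. Against 24 h, 96 probe sets were over 5-fold higher at 48 h (0.168%) and 69 were lower (0.121%). The median change of the 387 probe sets relative to the control was 0.48, 2.86 and 1.45 on the 48 h arrays, so that replicate 2 was now the highest. LOC_Os10g06000 read 12.5, 1279 and 46.6 and PRX74 read 7.38, 468 and 33.3. The count of 69 lower probe sets was 10 without replicate 3 of the 24 h group, 21 without replicate 1 and 232 without replicate 2, and it was 15, 180 and 44 without replicates 1, 2 and 3 of the 48 h group. OsChia2b, a chitinase, fell from 1408, 906 and 2006 at 24 h to 58.8, 417 and 179.6 at 48 h. PDC1, pyruvate decarboxylase of ethanol fermentation, had not changed detectably at 24 h, at 36.9, 34.1 and 26.1 against 31.3, 30.5 and 29.9, and was at 529.6, 320.3 and 379 at 48 h.

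In C418 the same 24 h of cold was measured on separate arrays. There 946 probe sets were induced over 5-fold (1.65%) and 195 repressed (0.341%). Of these, 709 were induced in both lines, which is 66.7% of the K354 calls and 74.9% of the C418 calls, and 104 were repressed in both, 58.1% and 53.3% of the calls. Over all 57258 probe sets the log2 changes of the lines correlated at 0.889, a description across probe sets, not across replicates. The difference between the responses, tested as an interaction at an adjusted p under 0.05, was called above 0 (a higher change in K354) for 393 probe sets (0.686%) and below 0 for 500 (0.873%). Of the 1063 probe sets induced in K354, 40 had a called difference, and of the 179 repressed, 23 had one. Their direction is not read, since the same K354 change chose them. Without replicate 2 of K354 at 24 h the counts were 1323 and 773. The median change of the 11 tubulins was 1.98 in K354 and 0.91 in C418, and the difference was called for 0 of them, against 0.810% of all genes above 0 and 1.22% below 0.

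Several genes rose in K354 and had a called difference from C418. LOC_Os08g02996, a receptor-like kinase, rose from 97.8, 118 and 98.2 to 519.6, 401 and 574 in K354. In C418 it was at 6.62, 8.61 and 9.35 and then at 6.15, 9.29 and 6.89, so that its probe set was below the 25th percentile of the C418 arrays (26.9 to 28.3) in both groups. The difference passed (adjusted p = 2.71e-07 by limma), but no response of so dim a probe set could be measured in C418, and its size is not read. LOC_Os10g36100 was at 29.7, 31.4 and 32.2 in C418 controls and at 36.3, 32.3 and 30.4 in its cold arrays, just above that percentile, a difference of 4.86 ± 0.77 to K354. LOC_Os11g27264, a serine carboxypeptidase, rose from 17.4, 16 and 19.6 to 299, 188 and 422 in K354 and was at 14.4, 17.0 and 12.2 and then 17.5, 13.9 and 15.4 in C418, dim throughout. In all 3 genes the C418 groups overlapped and the K354 groups did not.

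The differences of LOC_Os03g48750 (4.55), of LOC_Os08g39730, a cytochrome P450 (3.98), and of GST1, a glutathione S-transferase (2.03), also passed. GST1 was at 134, 132 and 271 and then at 286, 557 and 795 in K354. For LOC_Os08g39730 the K354 groups overlapped, at 58.8, 82.5 and 236 against 170.0, 657 and 1286. The calls of GST1 and LOC_Os08g39730 were near the threshold, with adjusted p = 0.0430 and 0.0400 by limma, and leaving out any of several arrays or adding the replicate block ended them, as did median centring for GST1. With the block their differences stayed at 2.03 and 3.98. LOC_Os10g35640 rose in both lines and more in K354, with a difference of 1.10.

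For other genes the difference was below 0. LOC_Os12g18560, a putative inhibitor of invertase or pectin methylesterase, was at 5.87, 5.34 and 7.62 and then at 376, 302 and 432 in C418, while in K354 it stayed dim at 3.78, 4.10 and 6.29 and then 12.9, 7.70 and 12.1, too dim to measure a response. BC1L9, a COBRA-like protein of the cell wall, rose from 163, 176 and 302 to 1080.4, 843 and 409.7 in K354 and from 39.4, 42.4 and 39.0 to 1764, 2186 and 2854 in C418. OsCDPK21, a calcium-dependent protein kinase, was below the 25th percentile in K354 at 23.1, 17.4 and 17.3 against 18.8, 16 and 20.2, and rose from 27.2, 24.5 and 33.2 to 244, 235 and 316 in C418. OsDREB1G differed by -2.35 ± 0.38, but its cold levels were alike at 3359, 3437 and 2219 in K354 and 3205, 3705 and 3305 in C418, and the control levels were not, at 266, 380.2 and 452 against 75.2, 92.5 and 76.6. OsABA8ox1 (-1.52) showed the same, with cold levels of 10021, 9943 and 10445 in C418 near those of K354 and controls of 200.4, 303 and 297 below the 511, 694 and 959 of K354. OsWRKY24 (-1.43) also overlapped between the lines in the cold, and its C418 controls were lower at 295, 288 and 287. PDC1 differed by -1.51, from dim C418 controls.

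Among repressed genes, LOC_Os02g11110, a putative flavonol glucosyltransferase, fell from 374, 411 and 365 to 19, 28.7 and 42.0 in K354. In C418 its probe set read 2.1, 2.1 and 1.72 before the cold and 1.17, 1.0 and 1.67 after it, far below the 25th percentile in both groups, so that the called difference has no size to read. LOC_Os09g16950, a cysteine-rich receptor-like kinase, fell from 1200.0, 1166 and 809 to 244, 243 and 127 in K354, and in C418 read 32.6, 35.8 and 28.3 and then 22.9, 21.8 and 27.3. OsFAD7, an omega-3 desaturase of the chloroplast that makes trienoic fatty acids, fell from 644, 545 and 313 to 177, 135 and 97.8 in K354 and went from 2.41, 2.42 and 2.15 to 18.6, 11.3 and 16 in C418, where all values lay below the 25th percentile and no response could be measured. CYP71Z7, a cytochrome P450, was at 541, 459 and 1592 and then 87.2, 151 and 103 in K354, with the third control array far above the others. Its difference to C418 (-2.33, adjusted p = 0.0437 by limma) no longer passed with the hybridization controls as reference (-2.19), without that control array (-1.77), or without any of 6 other arrays. LOC_Os08g04340, with a plastocyanin-like domain, differed by -2.37, LOC_Os07g43570 by -1.39 and LOC_Os06g14240 by 1.05, the last repressed in both lines.

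**Figure D4:**
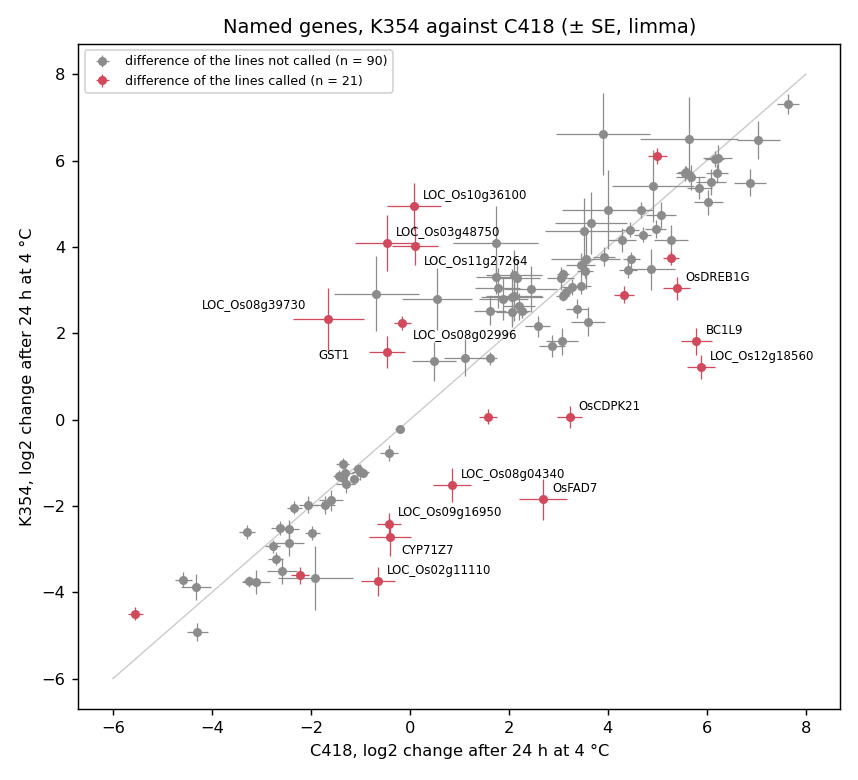
Log2 change after 24 h at 4 °C of the named genes, 1 point per probe set, in C418 (x axis) and K354 (y axis), each against the control of its line with the standard error of limma (bars); the line marks equal changes. Most named genes lie near the line, and the coloured points are those whose difference was called, such as LOC_Os10g36100 (4.86) above it and BC1L9 (-3.98) below it.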

How the data were processed

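The values, as deposited by the authors, are linear intensities of the probe sets of an Affymetrix rice genome array. Their methods name the invariant-set normalization of dChip and the sample records name MAS5 without a version. Depth does not apply to arrays, and the number of arrays, 3 per group and 36 in all, limits the precision. Intensities were log2 transformed with no filter. After 123 control probe sets of the array were removed, 57258 entered 1 linear model of 12 groups (limma 3.58.1 with lmFit and eBayes, R 4.3.3), and p-values were adjusted after Benjamini and Hochberg over all of them in each comparison. Induced and repressed mean an adjusted p under 0.05 and over 5-fold. Rose, fell, higher and lower in gene lists, and the interaction, mean an adjusted p under 0.05 at any fold. For some genes all 3 arrays of a group were dimmer than the 25th percentile of the array. That percentile then took the place of the group where a fold is given as a lower bound. Log2 changes are fitted values without this floor. Replicates were separate pots, and the labels name no batch.

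Exactly 1 gene was known from a probe table for 22436 of the probe sets. Lists were matched by symbol and synonym only, not by product as planned, so they hold only genes with such names, and each gene stands at its brightest probe set. Some genes are in more than 1 list. Loci and annotations are names taken from the study's supplements. For 12 probe sets these place the gene on another chromosome than the probe table, and none of them is named. The members and lists were chosen with earlier results of these data known.

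Named genes are the 15 largest changes in each direction with an informative annotation, up to 4 members of each list, genes named by the study, and the 8 largest in each direction against 12 h, against 48 h and in the interaction. CBF1 was named after its value was seen. Alternatives were other normalizations, scaling to control RNAs, a dim filter, a floor, other tests and thresholds, the 6 arrays alone, the replicate number as a block and leaving out each array. The fit was tested on simulated data. Tables and figures used python 3.11.15, numpy 2.4.6, pandas 2.3.3 and matplotlib 3.10.9.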

Additional observations from a re-analysis of the deposited data

Results flagged for a closer look

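The differences between the 24 h responses of K354 and C418, tested as an interaction, were called above 0 for 393 probe sets and below 0 for 500. Among the named genes, the difference was above 0 for LOC_Os10g36100 (4.86), LOC_Os03g48750 (4.55), LOC_Os08g39730 (3.98), LOC_Os11g27264 (3.92), LOC_Os08g02996 (2.39), GST1 (2.03), LOC_Os10g35640 (1.10) and LOC_Os06g14240 (1.05), all on the log2 scale. It was below 0 for LOC_Os12g18560 (-4.67), OsFAD7 (-4.54), BC1L9 (-3.98), OsCDPK21 (-3.16), LOC_Os02g11110 (-3.10), LOC_Os08g04340 (-2.37), OsDREB1G (-2.35), CYP71Z7 (-2.33), LOC_Os09g16950 (-1.98), OsABA8ox1 (-1.52), PDC1 (-1.51), OsWRKY24 (-1.43) and LOC_Os07g43570 (-1.39). These are fitted values. For LOC_Os08g02996, LOC_Os11g27264, OsFAD7 and LOC_Os02g11110 in C418, and for LOC_Os12g18560 and OsCDPK21 in K354, both groups lay below the 25th percentile of their arrays, so that no response was measured in that line and the size of the difference is not read. For LOC_Os09g16950 and LOC_Os07g43570 the C418 cold group, and for PDC1 the C418 control, was as dim.

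A signal outside the main measurement was seen in control probe sets of the array. Those for 25S rRNA were higher by 3.07 and those for 5.8S rRNA by 3.64 on the log2 scale after 24 h, while 18S rRNA changed by 0.20. The 5.8S values were 101, 89.3 and 84.5 in the control and 1076, 1117 and 1234 in the cold. Groups of 3 arrays were not tested for single outlying arrays.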

How the results depend on the processing

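For the 24 h response, 1063 probe sets induced and 179 repressed became 485 and 885 under scaling to the poly-A controls, 357 repressed with the hybridization controls, 3863 and 2734 at 2-fold, and 11037 and 12460 with no fold threshold. Leaving out 1 array gave 938 to 1331 and 156 to 200. Against 12 h, 387 higher and 2 lower became 8547 and 5782 with no fold threshold, 4 lower with quantile normalization or median centring, and 222 to 636 higher and 1 to 7 lower without 1 array. At 48 h against 24 h, 96 higher and 69 lower became 53 and 116 with the hybridization controls, 7607 and 7496 with no fold threshold, and 84 to 106 and 10 to 232 without 1 array. The interaction counts of 393 and 500 became 34 and 39 at 5-fold, 226 below 0 with the hybridization controls, and 263 to 1323 and 342 to 773 without 1 array. The cause of the shifts under the control RNAs was not tested. The other alternatives kept these counts within 1.5 times. The SAM statistic, the test of the study's methods, gave 1062 and 179 probe sets with the 5-fold threshold, and a t-test, which the study also names, 980 and 177 at an unadjusted threshold and 845 and 176 after Benjamini-Hochberg adjustment.

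For the 108 named genes, 1817 of 1869 values under the alternatives kept their direction and side of the threshold, 52 no longer passed and 0 reversed. The calls lost most often were the interactions of GST1 (12), LOC_Os08g39730 (9) and CYP71Z7 (8) and the changes of OsNIP1;1 (6) and the bright probe set of OsGLN2 (5). With the replicate block the counts were 1062 and 179 at 24 h, 387 and 2 against 12 h, 96 and 69 at 48 h against 24 h, and 377 and 486 for the interaction. Arrays of the same number were not paired by the labels, and their residuals at 24 h and in the control correlated at 0.00151, -0.038 and 0.199 for replicates 1, 2 and 3.

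The limits are few arrays, 1 of which stood apart at 24 h, a pooled control, dim probe sets whose folds are bounds, and gene lists that hold only named genes.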

Other observations

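Lists not described above are given here by their counts of genes higher and lower at 24 h, beside 28.5% and 33.3% of all genes, and several are near these shares. Cytosolic ribosomal proteins had 1 of 22 higher and 6 lower, with medians of -0.044, -0.41 and 0.0034 in the 3 replicates, so that replicate 2 was the lowest here too. Homeodomain-leucine zipper factors had 13 of 26 higher and 4 lower, bZIP factors 6 of 19 and 9, bHLH factors 5 of 12 and 1, MYB factors 4 of 8 and 3, and AP2/ERF factors outside DREB1 3 of 6 and 0. Cytochromes P450 had 6 of 29 higher and 12 lower, sucrose and invertase enzymes 6 of 17 and 5, and phenylpropanoid enzymes, which lead to lignin, 4 of 6 and 0. Calcium-transporting ATPases had 4 of 5 higher and 1 lower, U-box ubiquitin ligases 2 of 8 and 3, and glutathione S-transferases 2 of 6 and 1. Calvin cycle enzymes had 0 of 3 in either direction. Of 7 seed storage genes, 0 were higher and 4 lower, with a sum of 1987 to 2077 in the control and 898 to 1292 at 24 h. With the arrays scaled to the poly-A controls, the median of the calcium-transporting ATPases was -0.19 in place of 0.61, and the medians of the homeodomain-leucine zipper, bHLH and phenylpropanoid lists were also below 0 (-0.59, -0.43 and -0.27).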
